A study of Caenorhabditis elegans with 12 samples.

Results

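The *clec* genes encode proteins with C-type lectin domains. Their members were taken by name alone, as every gene of the deposited expression table whose identifier carries a symbol of *clec* and a number in the WBcel235 annotation, and 240 of the 46726 genes of the table qualified. RNA was sequenced from whole worms in 4 groups of 3 libraries each. The *alh-6* day 3 adults carried *alh-6(lax105)* and were collected 120 hr after synchronized L1 larvae had been placed on food, and the WT day 3 adults were N2 Bristol worms collected at the same time. The *alh-6* L4 and WT L4 groups were the same strains collected after 48 hr. All 4 groups were fed concentrated OP50 bacteria, and the labels name no exposure to a pathogen. The mutant group stands for 1 allele of *alh-6*, the gene for a mitochondrial enzyme of proline catabolism that converts P5C to glutamate. The study calls its experiments biological triplicates without saying what separates the 3 libraries of a group, so the p-values below measure the spread between these libraries, which may in part be technical.

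C-type lectin domains are protein folds that in animals often bind sugars, in many cases with calcium, although many members of the fold are not known to bind a sugar. In *C. elegans* the family is large, many of its proteins carry a secretion signal, and a number of its genes are transcribed in the intestine and change when worms meet bacterial or fungal pathogens. Other members are active in other tissues, and most have no known ligand.

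Reads counted on genes ranged from 19611354 to 20294269 in *alh-6* day 3 libraries, 20450798 to 22502295 in WT day 3 libraries, 19248229 to 23575173 in *alh-6* L4 libraries and 19906810 to 21228133 in WT L4 libraries. The *alh-6* transcript was at 33.6 ± 1.43 FPKM in *alh-6* and 33.2 ± 1.14 FPKM in WT day 3 adults, and at 61.4 ± 1.11 FPKM in *alh-6* and 69.7 ± 1.20 FPKM in WT L4 animals (SD, n = 3 each). It was therefore present in both genotypes, and its level alone does not check the genotype labels. FPKM is the number of reads on a gene scaled to its length and to the depth of the library, so levels of different *clec* genes can be set side by side.

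Of the 240 *clec* genes, 26 had no read in any of the 12 libraries and 214 had at least 1. A level of at least 1 FPKM in at least 3 of the 12 libraries was reached by 87 members. The other 127 with reads had a median of 15 reads over all 12 libraries together, and the highest group mean among them was 1.23 FPKM. Fewer members were detected in day 3 adults than in L4 animals: those with at least 1 read numbered 125 to 134 in *alh-6* day 3 libraries, 136 to 146 in WT day 3 libraries, 159 to 167 in *alh-6* L4 libraries and 163 to 168 in WT L4 libraries. The ranges of the stages do not overlap, but fewer genes of the whole table were detected in day 3 adults as well. Over the 6 libraries of a stage together, 201 members had a read at L4 and 191 in day 3 adults. Of all genes, 22340 had a read at L4 and 20436 in day 3 adults.

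By position, 86 members lie on chromosome V, 53 on IV, 48 on II, 36 on I, 14 on III and 3 on X, and 30, 24, 17, 7, 6 and 3 of these passed the filter, in the same order. On clustering, 155 members lie within 10 kb of another member, of which 54 passed the filter, and 85 lie farther away, of which 33 passed. Exon bases are shared with a gene on the opposite strand by 29 members and with a gene on the same strand by 12. Whether the counting used strand is not given in the sources used here, so reads of such genes cannot be told apart from those of their partners.

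A few members carried most of the family's RNA. The FPKM of all members summed to 3593 ± 233 in *alh-6* and 3800 ± 94.0 in WT day 3 adults, and to 3705 ± 411 in *alh-6* and 3465 ± 381 in WT L4 animals (SD, n = 3 each). These sums differed between groups by less than the SD of the L4 libraries, but this depended on the scaling. With the libraries scaled instead by median ratios of their genes, they were 3918 in *alh-6* and 3925 in WT day 3 adults, against 3408 in *alh-6* and 3201 in WT L4 animals. The members took 0.390% of the reads in *alh-6* and 0.415% in WT day 3 adults, against 0.438% in *alh-6* and 0.405% in WT L4 animals. In day 3 adults the highest member was *clec-87*, with 36.98 to 39.8% of the sum in *alh-6* and 37.6 to 37.96% in WT. In L4 animals it was *clec-63*, with 35.5 to 37.9% in *alh-6* and 31.4 to 33.8% in WT. The 10 highest members together made up 87.4 to 88.9% of the sum in *alh-6* day 3 libraries, 87.4 to 87.7% in WT day 3 libraries, 73.7 to 76.6% in *alh-6* L4 libraries and 72.3 to 74.9% in WT L4 libraries. The highest member thus differed between the stages in both genotypes.

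*clec-87* (WBGene00007709; chromosome I, 10184462 to 10185520, minus strand) was at 1303, 1260 and 1532 FPKM in *alh-6* and 1439, 1392 and 1476 FPKM in WT day 3 libraries, against 123.2, 132 and 136 FPKM in *alh-6* and 174, 173 and 206 FPKM in WT L4 libraries. Its day 3 libraries all lay far above its L4 libraries. It shares 138 exon bases with *iars-2* on the opposite strand. *clec-63* (WBGene00009394; chromosome II, 12895638 to 12897446, plus strand) ran the other way, with 389, 379 and 462 FPKM in *alh-6* and 428, 443 and 430 FPKM in WT day 3 libraries, against 1571, 1319 and 1183 FPKM in *alh-6* and 1159, 1283 and 955 FPKM in WT L4 libraries. The stages did not overlap, and at L4 the genotypes did.

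*clec-88* and *clec-91* shared the pattern of *clec-87*, and *clec-50* that of *clec-63*. *clec-88* averaged 487 ± 30.7 FPKM in *alh-6* and 564 ± 22.3 in WT day 3 adults, against 41.4 ± 3.09 in *alh-6* and 59.7 ± 1.30 in WT L4 animals. *clec-91* averaged 263 ± 15.1 and 283 ± 5.97 FPKM in *alh-6* and WT day 3 adults, and 24.2 ± 3.74 and 33.3 ± 1.44 FPKM in *alh-6* and WT L4 animals. *clec-50* averaged 180 ± 3.01 and 184 ± 15.7 FPKM in *alh-6* and WT day 3 adults, and 441 ± 53.2 and 376 ± 41.8 FPKM in *alh-6* and WT L4 animals (SD, n = 3 each). In all, 45 members reached a mean of 10 FPKM in some group and 8 reached 100 FPKM. Those 8 were *clec-87*, *clec-63*, *clec-88*, *clec-50*, *clec-91*, *clec-47*, *clec-150* and *clec-48*. *clec-48* reached that level only in L4 animals, and *clec-88* and *clec-91* only in day 3 adults. *clec-150* fell short of it in *alh-6* day 3 adults, at 89.0 ± 2.83 FPKM.

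**Figure D1:**
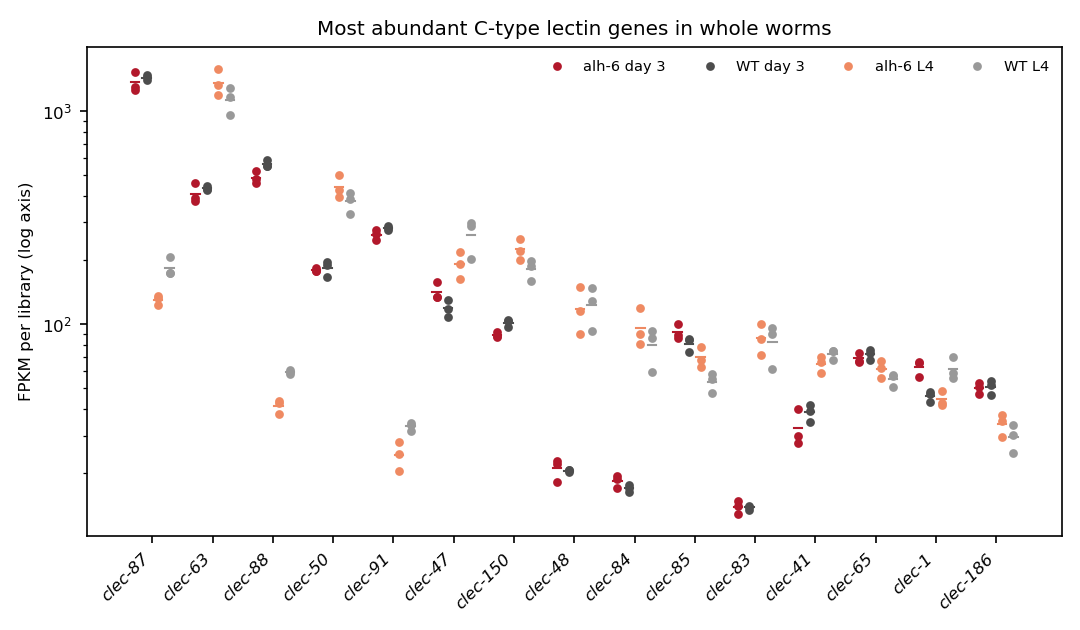
FPKM per library (log axis) of the *clec* genes with the highest means, by group, with points for libraries and bars for group means (n = 3). The stages separate in opposite directions for *clec-87*, *clec-88* and *clec-91* and for *clec-63*, *clec-50* and *clec-48*. The genotypes differ by less for these genes, but at L4 *clec-87*, *clec-88* and *clec-91* are lower in *alh-6* without overlap.

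Day 3 adults were compared with L4 animals within each genotype, as the study followed young and older animals. In WT, 77 members passed the filter of at least 1 FPKM in at least 3 of the 6 libraries. Of these, 13 were called higher and 41 lower in day 3 adults, where called means an adjusted p under 0.05 in limma (Benjamini-Hochberg over all genes tested) and at least a 2-fold change. Over all 13674 genes tested, 22.7% were called higher, 41.5% lower and 64.3% in either direction. Of the members tested, 16.9% were called higher, 53.2% lower and 70.1% in either direction. In *alh-6*, 80 members passed the filter, of which 11 were called higher and 50 lower, beside 22.7% and 43.5% of all genes, and 66.3% in either direction. Without the 2-fold threshold, 17 members passed higher and 50 lower in WT, beside 39.5% and 51.5% of all genes (91.0% together), and 16 passed higher and 54 lower in *alh-6*, beside 36.9% and 52.9% (89.7% together). The filter lets a gene in through 1 stage alone: 19 of the 77 tested members in WT reached 1 FPKM in L4 libraries only and 6 in day 3 libraries only, and in *alh-6* these were 24 and 6 of 80. For such members the filter favours a difference between the stages but does not fix the call.

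The median log2 fold change of the tested members was −1.13 in WT, against −0.40 for all genes, and −1.84 in *alh-6*, against −0.55. The members with no read in a whole group, 1 in WT and 3 in *alh-6*, lie far below these medians, so setting them to their bounds cannot move either. Rescaling each library by its median ratio moved the median of all genes by 0.12 in WT and by 0.21 in *alh-6*. The *clec* median relative to that of all genes was −0.73 in WT and −1.29 in *alh-6*, a difference that rescaling whole libraries leaves in place by construction. It depended on the filter. With no filter on low values, the medians lay closer together. They were −0.57 for 207 members and −0.42 for all genes in WT, and −0.79 for 198 members and −0.53 for all genes in *alh-6*. Of the 73 members tested in both genotypes, 50 were called in both, 11 higher and 39 lower in day 3 adults, and 0 were called in opposite directions. Of all 13365 genes tested in both, 60.9% were called in both, 21.1% higher and 39.8% lower, beside 68.5%, 15.1% and 53.4% of the members. The 2 genotypes do not share libraries in these comparisons.

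**Figure D2:**
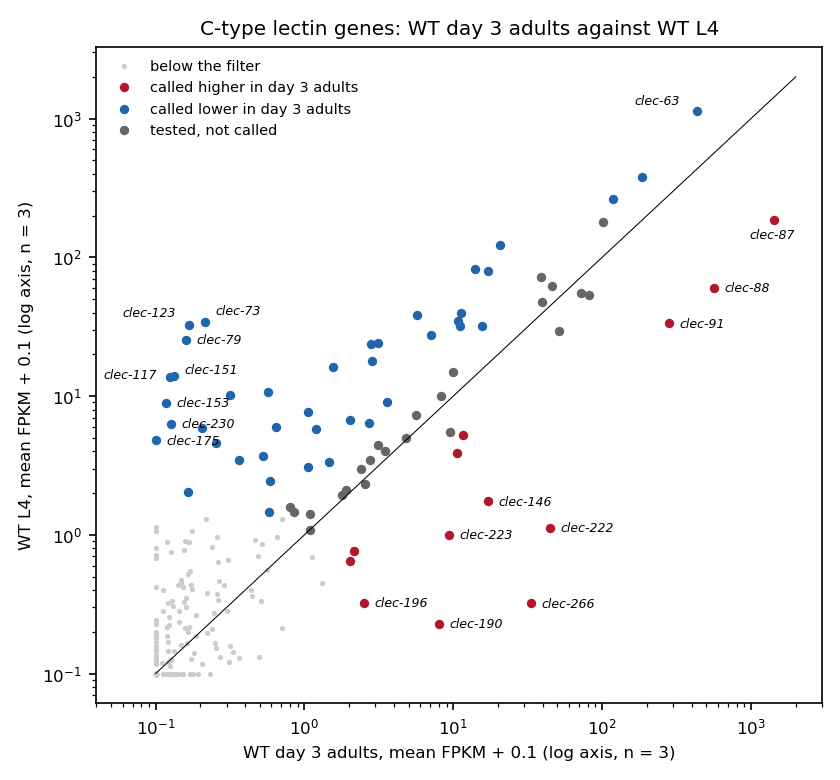
Mean FPKM + 0.1 of each *clec* gene in WT day 3 adults (x, log axis) and WT L4 animals (y, log axis), n = 3 libraries each, with the line of equal levels. The 41 members called lower in day 3 adults lie above the line and the 13 called higher lie below it, and the named members with the largest falls sit near 0 FPKM in adults.

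Among the members with the largest rises, *clec-266* (chromosome X, 6617393 to 6622915) was at 29.6, 33.3 and 36.6 FPKM in WT day 3 libraries and at 0.455, 0.0661 and 0.139 FPKM in WT L4 libraries. It shares 371 exon bases with *kqt-1* on the opposite strand. In *alh-6* it was at 15.1, 18.8 and 26.7 FPKM in day 3 libraries and at 0.0586, 0.0718 and 0.0664 FPKM in L4 libraries. The stages did not overlap in either genotype, with log2 fold changes of 6.88 (SE 0.40, adjusted p 4.47e-07) in WT and 6.90 (SE 0.24, adjusted p 4.35e-09) in *alh-6*, both by limma on log2(FPKM + 0.1). The pseudocount of 0.1 makes this scale understate the change of low genes.

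*clec-222* and *clec-223* lie next to each other on chromosome V (11271351 to 11272467 and 11273148 to 11278161), and both rose. *clec-222* was at 42.1, 45.8 and 45.5 FPKM in WT day 3 libraries, against 0.511, 1.44 and 1.09 FPKM in WT L4 libraries. *clec-223* was at 9.16, 9.58 and 9.15 FPKM in WT day 3 libraries, against 0.870, 0.973 and 0.849 FPKM in WT L4 libraries. No L4 library reached the lowest day 3 library for either gene, and their log2 fold changes were 5.42 (SE 0.30) and 3.24 (SE 0.15). *clec-145* and *clec-146*, which are neighbours on chromosome II (13588776 to 13590561 and 13590641 to 13593774), were also both called higher in day 3 adults of both genotypes. *clec-146* rose by 3.31 in WT and 3.41 in *alh-6* on the log2 scale, with 16.98 ± 0.681 FPKM in WT day 3 adults and 1.64 ± 0.303 FPKM in WT L4 animals.

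*clec-190* (chromosome IV, 15124931 to 15126121) was nearly absent from larvae. It was at 13.5, 10.5 and 12.8 FPKM in *alh-6* day 3 libraries, against 0, 0 and 0.0631 FPKM in *alh-6* L4 libraries, where 1 read was counted in all. The ratio was 584, with a 95% counting interval of 104.8 to 23060. In WT it was at 8.41, 7.90 and 7.46 FPKM in day 3 libraries and 0.0618, 0.188 and 0.132 FPKM in L4 libraries, a log2 fold change of 5.18 (SE 0.25). The high members *clec-87*, *clec-88* and *clec-91* rose by 2.97, 3.24 and 3.09 in WT and by 3.38, 3.55 and 3.44 in *alh-6* on the log2 scale, with adjusted p-values by limma from 1.81e-10 to 2.51e-09. *clec-97* and *clec-218* completed the 11 members higher in both genotypes. The other 2 called higher in WT were *clec-196*, with few reads (2.41 ± 0.576 FPKM in day 3 adults and 0.224 ± 0.284 FPKM in L4 animals), and *clec-12*. Both were below the filter in *alh-6* and were not tested there, so no difference between the genotypes is shown. *clec-12* and *clec-218* were named after their values were seen.

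The members with the largest falls were close to 0 in adults of both genotypes. *clec-123* (chromosome II, 3114234 to 3116762) was at 0.0269, 0.0783 and 0.0978 FPKM in WT day 3 libraries and at 30.8, 32.2 and 33.7 FPKM in WT L4 libraries, a log2 fold change of −7.62 (SE 0.21, adjusted p 3.92e-09). *clec-73* and *clec-79*, which lie about 17 kb apart on chromosome IV, fell by 7.47 and 7.34 on the same scale. *clec-73* was at 0.154, 0 and 0.187 FPKM in WT day 3 libraries, against 33.3, 32.2 and 37.4 FPKM in WT L4 libraries. Levels in *alh-6* were close to these, at 0.0441 ± 0.0157 FPKM in day 3 adults and 31.9 ± 2.05 FPKM in L4 animals for *clec-73*, and at 0.0647 ± 0.0422 and 24.1 ± 2.01 FPKM for *clec-79*.

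*clec-151* and *clec-153*, neighbours on chromosome III (4628465 to 4631132 and 4635247 to 4637534), fell by 6.73 and 6.26 in WT and by 6.71 and 6.03 in *alh-6*. For *clec-153*, 2 reads were counted in all WT day 3 libraries together, and its level there was lower than in WT L4 animals by a ratio of 508, with a 95% counting interval of 141 to 4194. *clec-117* had no read in the *alh-6* day 3 libraries and 12.8 ± 1.12 FPKM in *alh-6* L4 animals, which is at least 49.5-fold lower in day 3 adults when the floor is 3 reads per library. *clec-175* had no read in the WT day 3 libraries and 4.69 ± 0.202 FPKM in WT L4 animals, at least 57.0-fold lower in day 3 adults. *clec-229* and *clec-230*, on chromosome V at 15340006 to 15341504 and 15347847 to 15349144, are also close together. *clec-230* was at 0.0263 ± 0.0456 FPKM in WT day 3 adults and 6.24 ± 1.54 FPKM in WT L4 animals, and *clec-229* had no read in *alh-6* day 3 libraries, at least 59.1-fold lower than in *alh-6* L4 animals.

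Other abundant members fell less. *clec-63* fell by 1.37 in WT and 1.72 in *alh-6* on the log2 scale, *clec-50* by 1.03 and 1.29, and *clec-48* by 2.55 and 2.46. *clec-62*, *clec-63*, *clec-65* and *clec-66* form 1 cluster on chromosome II between 12893062 and 12906644, and they did not move alike. *clec-66* fell by 1.96 in WT, *clec-62* by 0.28, and *clec-65* was higher in day 3 adults, with 72.1 ± 3.67 FPKM in WT day 3 adults against 55.3 ± 3.74 FPKM in WT L4 animals (log2 fold change 0.38, SE 0.06). *clec-83*, *clec-84* and *clec-85*, side by side on chromosome IV, split likewise. *clec-83* fell by 2.55 and *clec-84* by 2.198 in WT, while *clec-85* rose by 0.60. *clec-85* shares 397 exon bases with *Y54G2A.40* on the same strand. *clec-47* fell by 1.13 in WT, and its value in *alh-6* of −0.42 passed the test (adjusted p 0.00566 by limma) but not after median ratio scaling (adjusted p 0.103) or with limma-voom on the recovered reads (adjusted p 0.0548).

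Several tissue markers moved with the stage. All 7 intestinal markers measured were called lower in day 3 adults of both genotypes, with summed levels of 579 to 657 FPKM in WT day 3 libraries and 4747 to 5595 FPKM in WT L4 libraries. The sperm list of *msp* genes, of which 29 of 31 were tested and all 29 called lower, summed to 6.54 to 16.6 FPKM in WT day 3 libraries and 7537 to 7957 FPKM in WT L4 libraries, and 4 of the 31 *msp* genes were at 0 in WT day 3 libraries. All 11 oocyte and eggshell markers were called higher, at 10230 to 10699 FPKM in WT day 3 libraries and 1756 to 1906 FPKM in WT L4 libraries. All 5 body wall muscle, 4 pharynx and 3 coelomocyte markers tested were called lower, and all 3 embryo markers tested were called higher. Of the molting epidermis markers tested, 8 of 9 were called lower in WT and 10 of 10 in *alh-6*. The exception in WT was *dpy-10*, which passed as higher (log2 fold change 0.79). In whole worms, fewer cells of a type and less RNA per cell cannot be told apart, and the part these tissues have in the *clec* differences between stages was not tested.

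At L4 the comparison of *alh-6* with WT asks which genes differ in the mutant while sperm are being made. Of the 78 *clec* genes tested, 6 were called higher in *alh-6* and 0 lower, which is 7.69% of the members beside 2.45% higher, 0.881% lower and 3.33% in either direction of all 13851 genes tested. They were *clec-180*, *clec-229*, *clec-242*, *clec-238*, *clec-247* and *clec-258*, all low to moderate in level. *clec-238*, *clec-242*, *clec-247* and *clec-258* passed the filter only through the *alh-6* libraries, in which they were higher. The share of members called therefore depends in part on the filter. Without the 2-fold threshold, 10 members passed higher and 7 lower, beside 8.19% and 7.15% of all genes (15.3% together). In all 17 of them every *alh-6* library lay on 1 side of every WT library, as in 100% of the 2124 genes that passed over the whole table. The other 61 members did not pass the test. At an unadjusted p under 0.05, 24 of the 78 members (30.8%) were counted, beside 31.3% of all genes tested. The median log2 fold change was 0.08 for the members and −0.03 for all genes. With no filter on low values, 6 of 201 members were called higher and 0 lower, beside 329 and 112 of all 22340 genes. *clec-242* and *clec-258* were then not among those called.

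*clec-180* (WBGene00017991; chromosome IV, 7568893 to 7573766, plus strand) was at 10.8, 8.84 and 12.2 FPKM in *alh-6* L4 libraries and 3.03, 3.48 and 3.57 FPKM in WT L4 libraries. Every *alh-6* library lay above every WT library. The log2 fold change was 1.62 (SE 0.15, adjusted p 0.000314 by limma). *clec-229* (WBGene00010355) was at 13.1, 12.6 and 11.5 FPKM in *alh-6* L4 libraries and 5.198, 3.54 and 4.63 FPKM in WT L4 libraries, again without overlap, a log2 fold change of 1.47 (SE 0.15, adjusted p 0.000495). Its neighbour *clec-230* was at 13.2, 9.23 and 8.54 FPKM in *alh-6* L4 libraries and 7.23, 7.03 and 4.46 FPKM in WT L4 libraries, which did not pass the test (log2 fold change 0.72, SE 0.22, adjusted p 0.0618).

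The other 4 members called higher lay near the filter of 1 FPKM, so that each rested on few reads. *clec-238* was at 1.86, 2.19 and 2.59 FPKM in *alh-6* L4 libraries and 0.872, 0.886 and 0.846 FPKM in WT L4 libraries, with a mean of 27.7 and 10.7 reads per library. *clec-242* was at 1.89, 1.73 and 1.75 FPKM in *alh-6* and 1.05, 0.759 and 0.319 FPKM in WT L4 libraries. *clec-247* was at 1.53, 2.69 and 2.70 FPKM in *alh-6* and 0.900, 0.967 and 1.02 FPKM in WT L4 libraries. All 4 were separated without overlap, with *clec-258* at 1.06, 1.73 and 1.92 FPKM in *alh-6* and 0.551, 0.639 and 0.755 FPKM in WT L4 libraries. Since nearly all WT L4 libraries were under 1 FPKM for these genes, they passed the filter through the *alh-6* libraries. Their log2 fold changes were 1.24 (SE 0.23), 1.34 (SE 0.37), 1.14 (SE 0.27) and 1.13 (SE 0.31), in the order named.

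These 4 members were not all stable to the choice of libraries and settings. With a pseudocount of 1 in place of 0.1, 2 members were called. The number called fell to 3 without *alh-6* L4 replicate 2, without *alh-6* L4 replicate 3 or without WT L4 replicate 2. *clec-242* lost its call without any of the 3 *alh-6* L4 libraries or without WT L4 replicate 2 or 3 (adjusted p up to 0.125), and with no filter on low values (adjusted p 0.0893). *clec-247* lost its call without *alh-6* L4 replicate 2 or 3 or WT L4 replicate 1 or 2 (adjusted p up to 0.0788), and in a fit of all 12 libraries (adjusted p 0.0559). *clec-258* lost its call without *alh-6* L4 replicate 2 or 3 or any WT L4 library (adjusted p up to 0.129), and with no filter (adjusted p 0.0668). *clec-180*, *clec-229* and *clec-238* passed the test under every alternative that was run.

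The 7 members lower in *alh-6* at L4 included *clec-87*, *clec-88* and *clec-91*, which were called higher in day 3 adults than in L4 animals of both genotypes. *clec-87* was at 123.2, 132 and 136 FPKM in *alh-6* L4 libraries, against 174, 173 and 206 FPKM in WT L4 libraries (log2 fold change −0.49, SE 0.08, adjusted p 0.00505 by limma). *clec-88* was at 37.9, 43.7 and 42.6 FPKM in *alh-6* and 58.4, 59.8 and 61.01 FPKM in WT L4 libraries, a log2 fold change of −0.53 (SE 0.07). *clec-91* had the same direction, at 20.4, 27.9 and 24.5 FPKM in *alh-6* and 31.7, 33.7 and 34.4 FPKM in WT L4 libraries (−0.47, SE 0.11). It no longer passed without *alh-6* L4 replicate 3 or WT L4 replicate 2 or 3 (adjusted p up to 0.0681) or with no filter (adjusted p 0.0619). All 3 differed by less than 2-fold, between libraries that did not overlap.

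*clec-4* and *clec-265* fell by more. *clec-4* (chromosome II, 12578331 to 12581113) was at 9.62, 8.36 and 7.59 FPKM in *alh-6* L4 libraries and 16.6, 15.96 and 15.8 FPKM in WT L4 libraries, a log2 fold change of −0.92 (SE 0.11, adjusted p 0.000985). *clec-265* was at 19.8, 15.8 and 17.7 FPKM in *alh-6* and 33.8, 34.8 and 26.7 FPKM in WT L4 libraries (−0.83, SE 0.12, adjusted p 0.00265). Both passed under every alternative. *clec-1* was at 48.5, 42.8 and 41.8 FPKM in *alh-6* and 59.2, 70.2 and 55.9 FPKM in WT L4 libraries (−0.47, SE 0.10). *clec-97* was at 2.55, 2.06 and 1.22 FPKM in *alh-6* and 3.06, 3.86 and 4.45 FPKM in WT L4 libraries. Its log2 fold change of −0.97 (SE 0.27) was the lowest among the members and rested on 26.3 and 49.3 reads per library in *alh-6* and WT, and it no longer passed when *alh-6* L4 replicate 2 or 3 or any WT L4 library was dropped (adjusted p up to 0.128), with no filter (0.0982) or after median ratio scaling (0.0538). It shares 118 exon bases with *clec-98* on the opposite strand.

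Among members that passed higher by less than 2-fold, *clec-187* was at 14.1, 13.7 and 13.2 FPKM in *alh-6* L4 libraries and 9.96, 10.5 and 9.03 FPKM in WT L4 libraries (log2 fold change 0.47, SE 0.10), without overlap. Its neighbour *clec-186* was at 34.1 ± 3.96 FPKM in *alh-6* and 29.6 ± 4.36 FPKM in WT L4 animals and did not pass. *clec-53*, *clec-227* and *clec-85* had log2 fold changes of 0.44 (SE 0.11), 0.76 (SE 0.22) and 0.38 (SE 0.10). *clec-53* and *clec-227* no longer passed when any of the 6 libraries was left out (adjusted p up to 0.0960 and 0.156). *clec-85* no longer passed without *alh-6* L4 replicate 1 or 3 or WT L4 replicate 1 or 3 (adjusted p up to 0.113). With no filter all 3 failed to pass (adjusted p 0.0552 for *clec-53*, 0.0858 for *clec-227* and 0.0922 for *clec-85*). The same held for *clec-85* after median ratio scaling (0.0527) and for *clec-227* in a fit of all 12 libraries (0.153). *clec-265*, *clec-187*, *clec-53*, *clec-227* and *clec-62* were named after their values were seen. *clec-63*, the most abundant member at L4, had a log2 fold change of 0.26 (SE 0.13, adjusted p 0.214), and its libraries overlapped.

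**Figure D3:**
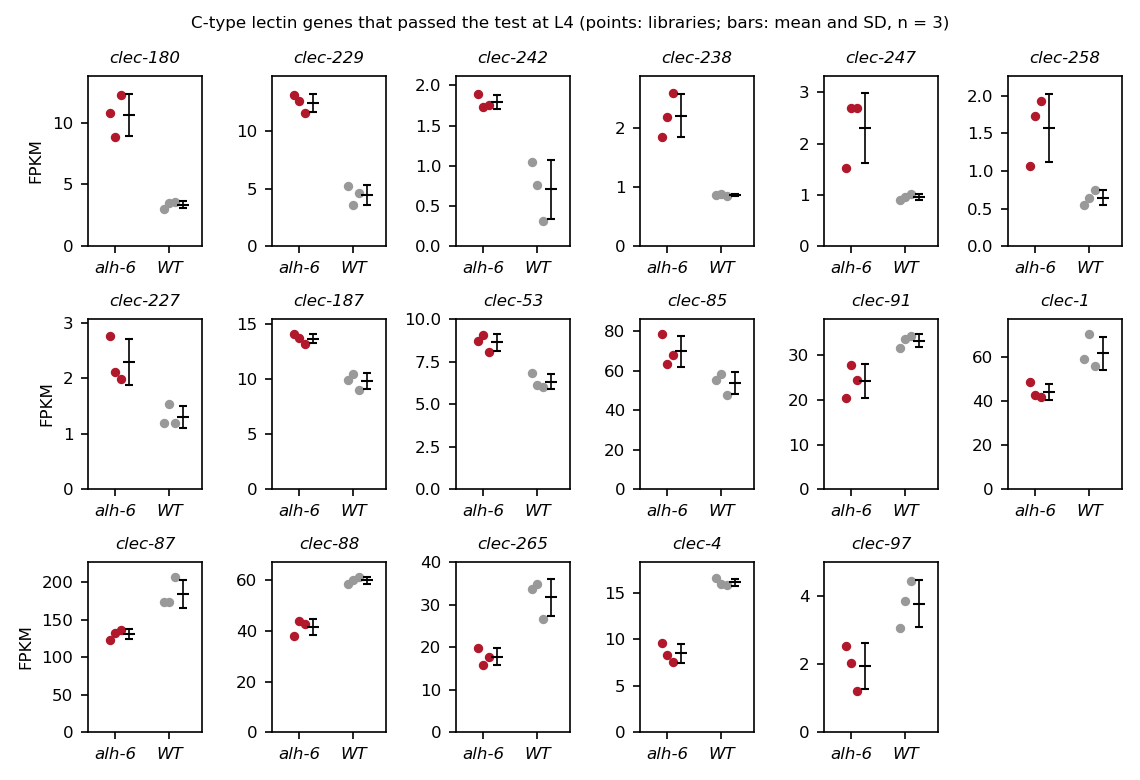
FPKM of the 17 *clec* genes that passed the test at L4 without the 2-fold threshold, with points for the 3 *alh-6* libraries (left, red) and the 3 WT libraries (right, grey) and bars for mean and SD. The panels run from the largest rise (*clec-180*) to the largest fall (*clec-97*), each axis starts at 0, and the genotypes do not overlap in any panel.

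Marker lists of several tissues differed between the genotypes at L4. All 10 markers of the molting epidermis were called higher in *alh-6*, and their sum was 149 to 186 FPKM in *alh-6* libraries and 55.2 to 62.6 FPKM in WT libraries. All 11 oocyte and eggshell markers passed the test as lower, at 1235 to 1325 FPKM in *alh-6* and 1756 to 1906 FPKM in WT libraries. Of the 29 *msp* genes tested, 24 passed as lower, at 5549 to 6358 FPKM in *alh-6* and 7537 to 7957 FPKM in WT libraries. Body wall muscle markers passed in 0 of 5 and coelomocyte markers in 0 of 3 cases. Of the 7 intestinal markers, 2 passed as higher, with sums of 5207 to 6729 FPKM in *alh-6* and 4747 to 5595 FPKM in WT libraries. The lists' part in the *clec* differences at L4 was not tested.

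In day 3 adults the same genotype comparison asks what differs in older animals. Of the 59 *clec* genes tested, 1 was called higher in *alh-6* and 0 lower, beside 0.409% of all 10501 genes tested in each direction and 0.819% in either. Without the 2-fold threshold, 3 passed higher and 2 lower, beside 2.14% and 4.18% of all genes (6.32% together). The other 54 did not pass, and 22 of the 59 (37.3%) had an unadjusted p under 0.05, beside 26.5% of all genes tested. The median log2 fold change was −0.07 for the members and −0.08 for all genes. Without *alh-6* day 3 replicate 3, and also in a fit of all 12 libraries, 2 members were called, 1 higher and 1 lower.

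*clec-145* (WBGene00013013; chromosome II, 13588776 to 13590561, minus strand) was at 7.16, 5.11 and 4.47 FPKM in *alh-6* day 3 libraries and 2.62, 1.67 and 1.91 FPKM in WT day 3 libraries. The lowest *alh-6* library was above the highest WT library, with a log2 fold change of 1.39 (SE 0.21, adjusted p 0.00582 by limma). It passed the test under every alternative that was run. *clec-145* shares 226 exon bases with *Y48E1B.8* on the opposite strand. Its neighbour *clec-146* showed 16.8 ± 1.05 FPKM in *alh-6* and 16.98 ± 0.681 FPKM in WT day 3 adults (log2 fold change −0.02, SE 0.08).

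*clec-1* was at 66.4, 56.7 and 65.95 FPKM in *alh-6* day 3 libraries and 46.8, 42.9 and 48.3 FPKM in WT day 3 libraries, a log2 fold change of 0.45 (SE 0.08, adjusted p 0.00962). *clec-190* was at 13.5, 10.5 and 12.8 FPKM in *alh-6* and 8.41, 7.90 and 7.46 FPKM in WT day 3 libraries (0.62, SE 0.12). It no longer passed without WT day 3 replicate 2 or 3 (adjusted p up to 0.0850), with no filter (0.0507) or in a fit of all 12 libraries (0.197). Both were separated without overlap. *clec-222* was lower in *alh-6*, at 25.7, 24.9 and 25.7 FPKM in *alh-6* day 3 libraries against 42.1, 45.8 and 45.5 FPKM in WT day 3 libraries (−0.80, SE 0.07, adjusted p 0.00011). In a fit of all 12 libraries together its adjusted p was 0.241. *clec-62* was at 30.7, 30.6 and 26.7 FPKM in *alh-6* and 40.1, 39.7 and 37.7 FPKM in WT day 3 libraries (−0.42, SE 0.08). It no longer passed when any WT day 3 library was left out (adjusted p up to 0.0641) or in the fit of all 12 libraries (0.0598).

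The most abundant adult members did not pass the test between genotypes. The log2 fold change in day 3 adults was −0.08 (SE 0.09, adjusted p 0.623) for *clec-87*, −0.21 (SE 0.07, adjusted p 0.0876) for *clec-88* and −0.11 (SE 0.06, adjusted p 0.257) for *clec-91*. Beside these, all 5 body wall muscle markers passed as higher in *alh-6* day 3 adults, summing to 257 to 288 FPKM in *alh-6* and 124 to 160 FPKM in WT libraries. Of the 3 embryo markers tested, 2 passed as lower, and the whole list of 6 summed to 8.93 to 10.3 FPKM in *alh-6* and 14.9 to 17.9 FPKM in WT libraries. Of the 4 pharynx markers tested, 1 was called higher. Intestinal and oocyte markers passed in 0 of 7 and 0 of 11 cases. Of the 4 molting epidermis markers tested, 1 was called lower, *noah-1* (log2 fold change −1.02). The part of these lists in the *clec* differences of adults was not tested.

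Whether the genotype difference itself changed with the stage was tested with a genotype by stage term over all 12 libraries, where a positive value means a larger *alh-6* over WT ratio in day 3 adults. Of the 87 members tested, 2 were called with a positive and 3 with a negative term, beside 0.966% and 1.95% of all 14497 genes tested (2.91% together). Without the 2-fold threshold these were 4 and 5, beside 3.37% and 4.01% of all genes (7.38% together). With a pseudocount of 1 or 0.01, 3 members were called in each case. With median ratio scaling the called members were 4 positive and 2 negative. The number called fell to 3 without *alh-6* day 3 replicate 1 or 3, WT day 3 replicate 1 or 2 or *alh-6* L4 replicate 3, and to 2 without *alh-6* L4 replicate 2 or WT L4 replicate 2 or 3. Beside these, all 10 markers of the molting epidermis were called with a negative term, 10 of the 11 oocyte and eggshell markers passed with a positive term and 3 of the 5 body wall muscle markers passed with a positive term. The molting list summed to 10.1 to 13.2 FPKM in *alh-6* and 15.5 to 15.99 FPKM in WT day 3 libraries, and the oocyte list to 10502 to 11706 FPKM in *alh-6* and 10230 to 10699 FPKM in WT day 3 libraries. The part of these tissues in the *clec* terms was not tested.

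*clec-1* had opposite directions at the stages. It was lower in *alh-6* at L4 (−0.47) and higher in *alh-6* in day 3 adults (0.45), each past the test, and its term was 0.93 (SE 0.13, adjusted p 0.00185 by limma). *clec-4* was lower in *alh-6* at L4 and was at 1.66, 1.47 and 1.45 FPKM in *alh-6* and 1.4003, 1.39 and 1.58 FPKM in WT day 3 libraries, which overlap, and its term was 0.98 (SE 0.18, adjusted p 0.00765). *clec-180* was at 0.131 ± 0.0470 FPKM in *alh-6* and 0.265 ± 0.164 FPKM in WT day 3 adults, a term of −2.21 (SE 0.41, adjusted p 0.00687). *clec-229* was at 0 in *alh-6* and 0.155 ± 0.0807 FPKM in WT day 3 adults, a term of −2.77 (SE 0.37, adjusted p 0.00112). The adult levels of *clec-180* and *clec-229* rest on a mean of 7.3 and 0 reads per library in *alh-6* and 15.7 and 2.3 in WT. The size of the *clec-229* term ran from −5.38 to −1.51 over the alternatives, which include pseudocounts of 0.01 and 1.

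The remaining terms were less stable. *clec-190* (1.53, SE 0.37) and *clec-97* (1.22, SE 0.34) had positive terms, and *clec-57* (−1.03, SE 0.27), *clec-62* (−0.65, SE 0.16) and *clec-150* (−0.50, SE 0.13) negative ones. At L4 *clec-190* was below the filter, with a mean of 0.33 reads per library in *alh-6* and 2 in WT. The size of its term ran from 0.71 to 3.33 over the alternatives, which include the other pseudocounts. With 1 library left out, the term no longer passed in 8 of 12 choices for *clec-190*, 9 of 12 for *clec-97*, 9 of 12 for *clec-57*, 4 of 12 for *clec-62* and 8 of 12 for *clec-150*. The adjusted p-values ran up to 0.0602, 0.111, 0.0875, 0.0681 and 0.0739, in that order. With no filter the terms of *clec-97* (0.0931), *clec-57* (0.0683), *clec-62* (0.0598) and *clec-150* (0.0678) no longer passed. The same held with a pseudocount of 0.01 for *clec-190* (0.0609) and *clec-97* (0.0579), and after median ratio scaling for *clec-150* (0.0589). *clec-57* was at 2.74, 1.799 and 1.93 FPKM in *alh-6* and 4.27, 2.69 and 3.58 FPKM in WT day 3 libraries, and at 10.9, 11.4 and 12.0 FPKM in *alh-6* and 9.89, 9.46 and 7.54 FPKM in WT L4 libraries. Its genotype difference passed the test at neither stage. *clec-145* had a term of 1.54 (SE 0.44) that did not pass (adjusted p 0.0506), so its difference in adults was not shown to differ from that at L4. The terms of *clec-87* (0.42, adjusted p 0.0530) and *clec-88* (0.32, adjusted p 0.0512) did not pass either.

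**Figure D4:**
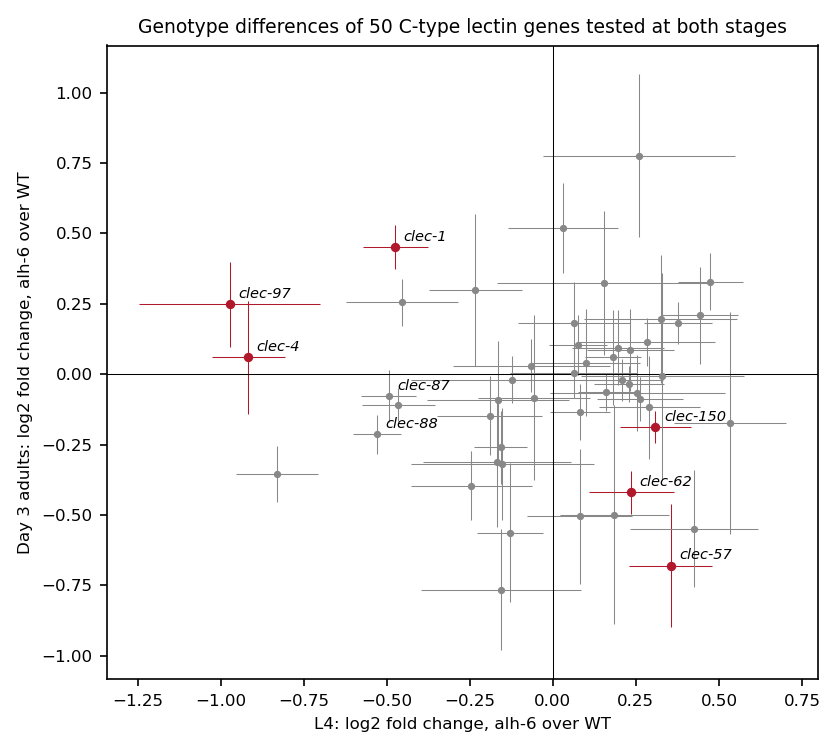
Genotype difference (log2, *alh-6* relative to WT) at L4 (x) and in day 3 adults (y) for the 50 *clec* genes tested at both stages, with bars for the standard error on each axis. The 6 of them that passed the genotype by stage test are red, and *clec-1* stands alone among these in having passed at each stage with opposite signs.

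A list of 16 *clec* genes known to respond to bacterial or fungal pathogens in *C. elegans* was read separately. At each stage and in each genotype, 9 of the 16 passed the filter: *clec-4*, *clec-7*, *clec-41*, *clec-49*, *clec-52*, *clec-66*, *clec-67*, *clec-85* and *clec-86*. The other 7 (*clec-17*, *clec-39*, *clec-60*, *clec-61*, *clec-70*, *clec-71* and *clec-82*) stayed low in all groups, the highest mean being that of *clec-17* in *alh-6* L4 animals, 0.723 FPKM. The whole list summed to 139 to 157 FPKM in *alh-6* and 137 to 155 FPKM in WT day 3 libraries, and to 248 to 284 FPKM in *alh-6* and 223 to 259 FPKM in WT L4 libraries. The genotypes overlapped at both stages.

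Between genotypes, 1 of the 9 passed as higher in *alh-6* at L4 (*clec-85*) and 1 as lower (*clec-4*), 0 of them by 2-fold or more, and in day 3 adults 0 passed in either direction. Their median log2 fold change was 0.20 at L4, against −0.03 for all genes, and −0.07 in day 3 adults, against −0.08. *clec-85* was at 78.3, 63.1 and 67.9 FPKM in *alh-6* L4 libraries and 55.3, 58.4 and 47.4 FPKM in WT L4 libraries. Those ranges do not overlap. *clec-7* had the largest difference in adults, 1.39 ± 0.241 FPKM in *alh-6* and 2.43 ± 0.433 FPKM in WT (log2 fold change −0.77, SE 0.21), which did not pass (adjusted p 0.0590).

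Between stages, 6 of the 9 were called lower in WT day 3 adults and 0 higher, beside 41.5% and 22.7% of all genes tested, and 7 passed as lower and 1 (*clec-85*) as higher without the 2-fold threshold. Of all genes tested, 51.5% passed as lower and 39.5% as higher in WT. In *alh-6*, 7 were called lower, beside 43.5% of all genes, and *clec-85* again passed as higher. *clec-4* was at 1.4003, 1.39 and 1.58 FPKM in WT day 3 libraries and 16.6, 15.96 and 15.8 FPKM in WT L4 libraries, a log2 fold change of −3.38 (SE 0.12), and *clec-52* was at 2.37, 3.07 and 2.70 FPKM in WT day 3 libraries and 24.8, 27.2 and 19.4 FPKM in WT L4 libraries (−3.08, SE 0.15). *clec-86*, *clec-67* and *clec-49* fell by 2.87, 2.26 and 1.65. *clec-41* fell by 0.91 in WT and was at 38.6 ± 3.44 FPKM in WT day 3 adults and 72.5 ± 4.17 FPKM in WT L4 animals. *clec-7*, at 2.43 ± 0.433 FPKM in WT day 3 adults and 2.21 ± 0.317 FPKM in WT L4 animals, did not pass.

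**Figure D5:**
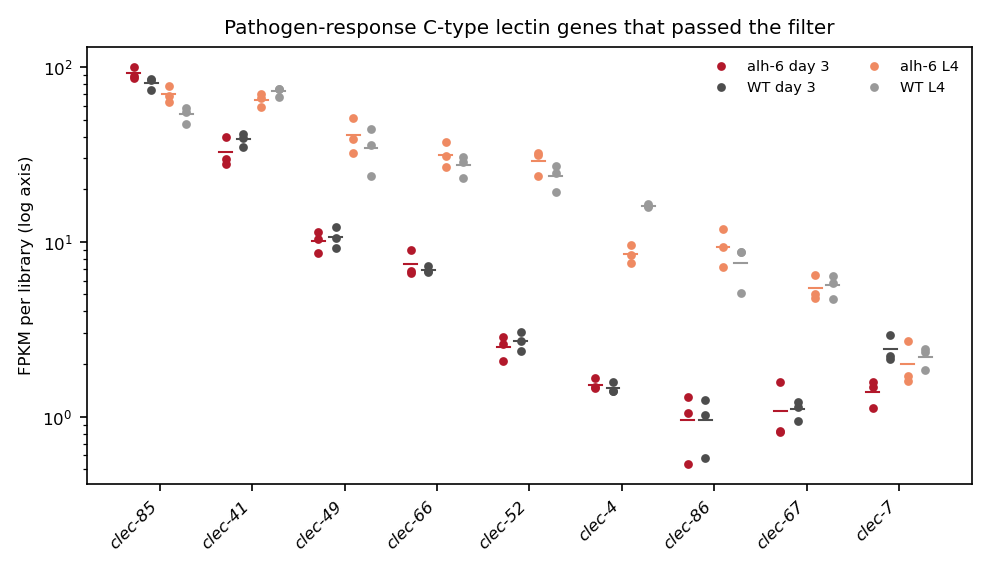
FPKM per library (log axis) of the 9 pathogen-response *clec* genes that passed the filter, by group, with points for libraries and bars for means (n = 3). In both genotypes most of them are lower in day 3 adults, *clec-85* is not, and at L4 the genotypes are apart without overlap for *clec-4* and *clec-85*.

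Other immune genes were read from lists for comparison. Of 17 genes of innate immune signalling, all tested, 0 were called at the 2-fold threshold between genotypes at either stage. Of all genes, 3.33% were called at L4 and 0.819% in day 3 adults. Without it *atf-7*, a transcription factor downstream of the p38 kinase PMK-1, passed as lower in *alh-6* at L4 (71.7 ± 1.66 FPKM in *alh-6* and 83.7 ± 4.54 FPKM in WT, log2 fold change −0.22). *zip-2*, a transcription factor of the response to *Pseudomonas* infection, passed as higher in *alh-6* day 3 adults (38.7 ± 4.10 FPKM in *alh-6* and 27.6 ± 1.81 FPKM in WT, log2 fold change 0.48). Of 49 immune effector genes outside the *clec* family, 36 were tested at L4, where 2 were called higher and 2 lower, beside 2.45% and 0.881% of all genes. *spp-13*, a saposin-like protein gene, was at 19.3 ± 1.45 FPKM in *alh-6* and 7.05 ± 1.24 FPKM in WT L4 animals, and *irg-2*, an infection response gene, at 0.774 ± 0.0961 FPKM in *alh-6* and 4.96 ± 0.969 FPKM in WT L4 animals. In day 3 adults 1 of 35 tested was called, *lys-10*, a lysozyme gene, at 0.747 ± 0.329 FPKM in *alh-6* and 2.29 ± 0.590 FPKM in WT. Between stages in WT, 1 signalling gene was called higher and 11 lower in day 3 adults, and 7 effector genes were called higher and 15 lower of 38 tested. Of all genes tested in WT, 22.7% were called higher and 41.5% lower, close to the shares of the effector genes. In *alh-6* these were 1 and 11 signalling genes and 7 and 16 effector genes, beside 22.7% and 43.5% of all genes.

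The 12 galectin genes (*lec*), which encode sugar-binding proteins of another fold, were set beside the *clec* genes. All 12 passed as lower in WT day 3 adults than in WT L4 animals, 9 of them by at least 2-fold, and 11 passed as lower in *alh-6*, 8 by at least 2-fold. Of all genes tested, 51.5% passed as lower in WT (41.5% by at least 2-fold) and 52.9% in *alh-6* (43.5% by at least 2-fold). Of the 77 *clec* genes tested, 17 passed as higher and 50 as lower in WT, beside 39.5% and 51.5% of all genes. The galectins summed to 919 to 953 FPKM in WT day 3 libraries and 2428 to 2677 FPKM in WT L4 libraries. Between genotypes, 4 galectins passed as higher in *alh-6* day 3 adults (*lec-1*, *lec-2*, *lec-4* and *lec-5*) and 1 as lower in *alh-6* at L4 (*lec-2*), each by less than 2-fold. Of all genes tested, 2.14% passed as higher in day 3 adults and 7.15% as lower at L4. *lec-1* was at 288 ± 17.5 FPKM in *alh-6* and 242 ± 10.9 FPKM in WT day 3 adults (log2 fold change 0.25, SE 0.06, adjusted p 0.0388 by limma).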

How the data were processed

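A deposited table holds FPKM of every gene in each of the 12 libraries, in which the authors scaled reads by gene length and library depth. The authors also deposited, for each stage, group means of counts divided by size factors, a normalized signal. The same tables hold the authors' fold changes and p-values, which were not used. The submitters' processing notes name CASAVA 1.8, Bowtie2 2.2.3, TopHat2 2.0.12, HTSeq 0.6.1, DESeq 1.18.0 and the build ce11. Strandedness and the treatment of reads that map to several genes are not given in the sources used here, so near-identical members may share or lose reads.

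Symbols and positions came from Ensembl release 115 (WBcel235, the sequence of ce11), which held 46364 of 46726 identifiers, 43623 with a symbol. Reads were recovered by joining FPKM with the group means (100% of values whole, tolerance 0.05). Replicates differed beyond counting noise (chi-square per degree of freedom 3.76 to 22.0), so each was kept as 1 library. At 19248229 to 23575173 reads per library, a member under 1 FPKM has few reads and counting noise is large.

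The test was limma 3.58.1 in R 4.3.3 (trend and robust variance) on log2(FPKM + 0.1), over genes that reached 1 FPKM in 3 or more libraries of the fit, with Benjamini-Hochberg adjustment over all genes tested. Calls need an adjusted p under 0.05 and a 2-fold change, and "passed" needs the adjusted p alone. Intervals and floors (3 reads per library) cover counting error only. Named were members called between genotypes or in the genotype by stage term, the 8 largest rises and falls between stages in WT, the 10 highest members of each group, the pathogen list members past the filter, and the most changed genes of other lists. The members, lists and rules were chosen with earlier results of these data known. Alternatives were pseudocounts of 1 and 0.01, no filter, median ratio scaling, all 12 libraries in 1 fit, a replicate block, limma-voom on the recovered reads, no fold threshold, and each library left out in turn with the genes tested kept. The fits were also run on simulated data, in which the changes were larger and the changed genes more abundant than the members near the filter. That run therefore does not bear on the calls of those members.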

Additional observations from a re-analysis of the deposited data

Results flagged for a closer look

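The genotype difference of 9 *clec* genes differed between the stages by the genotype by stage term of limma, where a positive value means a larger *alh-6* over WT ratio in day 3 adults. The term was 0.93 for *clec-1*, 0.98 for *clec-4*, 1.22 for *clec-97* and 1.53 for *clec-190*. It was −2.77 for *clec-229*, −2.21 for *clec-180*, −1.03 for *clec-57*, −0.65 for *clec-62* and −0.50 for *clec-150*. Only the terms of *clec-1*, *clec-4*, *clec-180* and *clec-229* passed under every alternative. In day 3 adults *clec-180* and *clec-229* were below the filter and had few reads. The size of the *clec-229* term ran from −5.38 to −1.51 over the alternatives. These 9 are 10.3% of the 87 members tested, beside 7.38% of all genes. With 3 libraries a group, no search for outlying libraries was made.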

How the results depend on the processing

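No named result changed direction under any alternative. In WT, all 35 named stage differences kept their side of the threshold under every alternative, as did 32 of 33 in *alh-6*. Between genotypes 9 of 17 at L4 and 2 of 5 in day 3 adults did so, and 4 of 9 for the genotype by stage term.

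The number of members called at L4, 6, was 17 without the fold threshold and 2 with a pseudocount of 1, and 3 to 7 when 1 library was left out. In day 3 adults the number, 1, was 5 without the fold threshold and 2 in a fit of all 12 libraries, and 1 to 2 when 1 library was left out. Without the filter, 92 members were called between stages in WT (54 with it) and 96 in *alh-6* (61 with it), since 207 and 198 members were then tested. Of all 22110 genes then tested in WT, 3590 were called higher and 7256 lower. In *alh-6* these were 3564 and 7703 of 22033. The share of members called was then below that of all genes in both genotypes, unlike with the filter. For the genotype by stage term the number, 5, was 9 without the fold threshold, 3 with a pseudocount of 1 and 3 with 0.01, and 2 to 7 when 1 library was left out.

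The summed FPKM became 3918 in *alh-6* and 3925 in WT day 3 adults with median ratio scaling, against 3408 in *alh-6* and 3201 in WT L4 animals, so that the day 3 sums exceeded the L4 sums by more than the L4 SDs of 411 and 381. Without *clec-87* it was 2228 in *alh-6* and 2364 in WT day 3 adults, and without *clec-63* it was 2347 in *alh-6* and 2333 in WT L4 animals.

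The replicate numbers showed no clear pairing of the samples, which does not exclude one. Same-numbered libraries of the genotypes had correlations of deviations of −0.03, 0.01 and 0.18 at L4 and −0.02, −0.13 and −0.12 in day 3 adults. Differently numbered libraries ran from −0.17 to 0.16 at L4 and from −0.07 to 0.19 in day 3 adults. Between stages the same-numbered values were −0.04, −0.05 and −0.03 in WT and 0.08, 0.01 and 0.05 in *alh-6*. With the replicate block 6 members were called at L4, 1 in day 3 adults, 54 between stages in WT, 61 in *alh-6* and 4 for the genotype by stage term, and 96 of 99 named results kept their side of the threshold. *clec-227* (adjusted p 0.0709) and *clec-97* (0.0678) at L4 and *clec-97* for the stage term (0.0838) did not.

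The planned quasi-likelihood test on the recovered reads was not run. The 127 members with reads that stayed below the filter had a median of 15 reads over 12 libraries, which limits the precision of their values.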
